A study of Mus musculus with 6 samples.

Results

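10 genes of nucleic acid sensing and of the interferon receptor are described here, taken by name from the 43629 gene rows of the count table: the cytosolic DNA arm (Mb21d1, listed as Cgas in the annotation, its adaptor Tmem173, also called STING, and the nuclease Trex1), the RNA arms (Tlr3, Mavs and the editing enzyme Adar), the shared relay (Tbk1 and Irf3) and the subunits Ifnar1 and Ifnar2 of the receptor. All 10 have a row in the table, and 8 of them had enough counts to be tested among 13445 tested genes. Polyadenylated RNA was measured in M1, a mouse neuroblastoma line, 6 days after doxycycline (4 to 6 µg/ml) was added to switch on a short hairpin RNA. One group of 3 libraries carried a hairpin directed at Igf2bp1 (shIGF2BP1, genotype label IGF2BP1 knockdown) and the other group of 3 carried a non-targeting hairpin (shNT, genotype label WT). All 6 libraries came from doxycycline-treated cells, so a doxycycline effect common to both groups cannot be seen. A single line was used here, and the labels name no clone and do not say whether the replicates were separate cultures, so a p-value here is set against a spread that may be technical.

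Cells detect misplaced nucleic acid through separate arms that meet at common kinases. In the cytosol, cGAS binds DNA and makes a cyclic dinucleotide that switches on STING, while RIG-I and MDA5 bind viral-type RNA and signal through the mitochondrial adaptor MAVS; TLR3 reads RNA duplexes inside endosomes through TRIF. The arms converge on the kinase TBK1, which phosphorylates the transcription factor IRF3 to induce interferon genes, and secreted type I interferon acts back on cells through the IFNAR1 and IFNAR2 chains and the JAK and STAT proteins. ADAR1 and TREX1 act as brakes, editing RNA duplexes and digesting stray DNA. In many tumours the cGAS and STING pair is silenced.

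Library totals ran from 25119655 to 34014482 counts in shIGF2BP1 and from 30756389 to 35373076 in shNT. Igf2bp1 (ENSMUSG00000013415), the targeted gene, had 67, 35 and 311 counts in the libraries labelled shIGF2BP1 and 37, 175 and 201 in shNT. The groups overlapped, and edgeR's quasi-likelihood test gave a log2 fold change of 0.25 ± 0.79 (SE; Benjamini-Hochberg adjusted p = 0.966), so directions below compare libraries as labelled and not a measured loss of Igf2bp1. Of 9 neuroblast markers, Hand2, Mycn, Gata3 and Isl1 were tested, and Th and Dbh, enzymes of catecholamine synthesis, had 0 counts in all 6 libraries, so these defining markers of the label were absent. Of 8 macrophage and leukocyte markers, Ptprc had 1 count in all and Adgre1 and Tyrobp had 0, while Cd68, Cd14 and Fcer1g were tested. The summed CPM (counts scaled to TMM-normalised library size) of the 8 was 8.05 to 9.01 in shIGF2BP1 and 11.3 to 16.7 in shNT. Cd68, a lysosomal protein, was lower in every shIGF2BP1 library (3.13 to 5.56 CPM) than in shNT (7.78 to 14.6 CPM). Fcer1g, an Fc receptor chain, lay the other way (0.364 to 0.567 CPM in shIGF2BP1 and 0 to 0.176 CPM in shNT), and Cd14 overlapped (2.83 to 3.89 CPM in shIGF2BP1 and 1.73 to 3.47 CPM in shNT). Their part in the results was not tested.

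Measured per exon length and library size (TPM), the 10 genes fell into a well expressed block of 7, a low Tlr3, and a pair at or near 0. Mavs and Tmem173 were the highest, with mean TPM of 108 and 106 over the 6 libraries and ranges of 85.3 to 121 and 68.1 to 135. They lay above 87.3% and 86.9% of tested genes. Neither stood above the other in more than 3 of 6 libraries. Adar (48.0 TPM), Tbk1 (45.8 TPM), Irf3 (41.6 TPM), Ifnar1 (39.1 TPM) and Ifnar2 (34.5 TPM) followed with ranges that overlapped from each gene to the next, so their order is not resolved. Tmem173 was above Adar in 6 of 6 libraries, although their ranges met through Adar at 75.8 TPM in shNT replicate 3. Tlr3 was separate from both its neighbours, at 4.45 TPM (range 3.04 to 6.63) and above 18.7% of tested genes. Cgas had a mean of 0.0423 TPM and Trex1 was listed at 0. The line thus expressed the adaptors, the kinase, the transcription factor and the receptor, and close to no RNA of the DNA sensor itself.

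**Figure D1:**
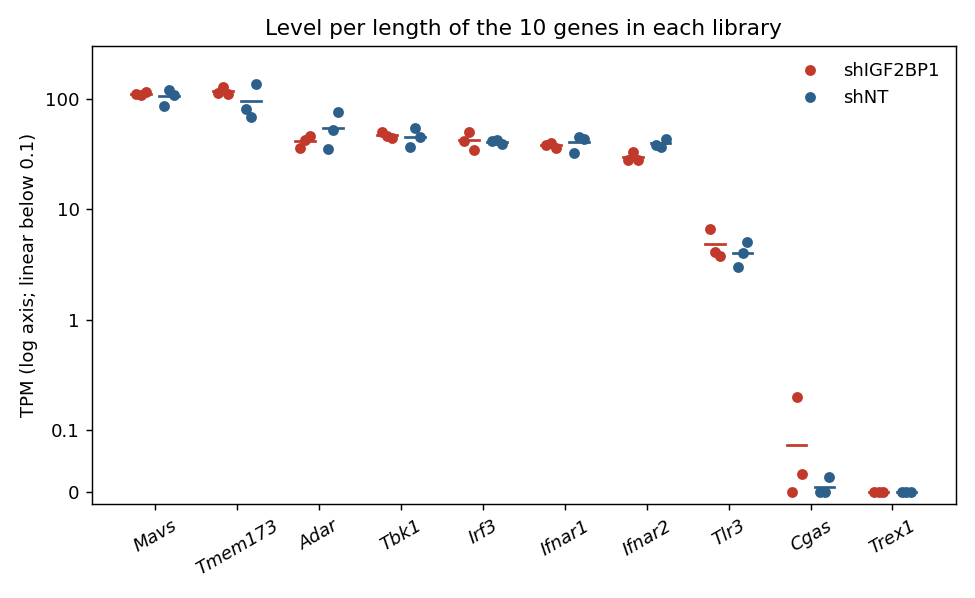
Level per length of the 10 genes, in TPM on a log axis that is linear below 0.1, with 1 dot per library and a bar at the group mean (3 shIGF2BP1 libraries in red, 3 shNT libraries in blue). Mavs and Tmem173 sit near 100 TPM, 5 genes between 27.7 and 75.8 TPM, Tlr3 between 3.04 and 6.63 TPM, and Cgas and Trex1 at or near 0.

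The promoter windows of the sensors and receptors are set here beside those of genes that interferon induces (the 15 output genes, such as Ifit3 and Isg15). Windows ran from 250 bases before to 50 bases after the annotated start, from RefSeq on GRCm38.p6. Those of 9 of the 10 genes were searched on both strands, and Tmem173 was left out of the search. The letters sought were the interferon-stimulated response element GAAANNGAAA and the shorter IRF element AANNGAAA that lies within it. No window of the 9 genes held the longer element, against 3.03% of the windows of tested genes. Counted by gene, 9 of 12 output genes with a window held the longer element. Only exact letters were sought, so a near match is not counted. The shorter element was in Tlr3 and in the most downstream of 3 Adar windows, that is in 2 of the 12 windows of these genes, against 17.7% of the windows of tested genes. The match lay at -59 to -52 from the Tlr3 start and at 29 to 36 from the Adar start. The 2 matches, the window of Ifnar2, which has neither element, and those of Ifit3 and Isg15, which have 2 and 3 copies of the longer one, are printed 5′ to 3′ on the gene's strand. They cover chr8:45410331-45410630 (minus strand) for Tlr3, chr3:89730468-89730767 (plus) for Adar, chr16:91372533-91372832 (plus) for Ifnar2, chr19:34583279-34583578 (plus) for Ifit3 and chr4:156200769-156201068 (minus) for Isg15. Matches are in capitals, for Ifit3 and Isg15 those of the longer element only. The Isg15 window holds 4 copies of the shorter element, not all of them in capitals. A match is a description of letters and does not show that a factor binds there.
Tlr3: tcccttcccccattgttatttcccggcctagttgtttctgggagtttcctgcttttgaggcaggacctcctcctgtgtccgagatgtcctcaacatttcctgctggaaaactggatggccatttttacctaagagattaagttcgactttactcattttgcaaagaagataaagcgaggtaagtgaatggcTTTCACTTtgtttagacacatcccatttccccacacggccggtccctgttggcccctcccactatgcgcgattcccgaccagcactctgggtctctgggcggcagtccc
Adar: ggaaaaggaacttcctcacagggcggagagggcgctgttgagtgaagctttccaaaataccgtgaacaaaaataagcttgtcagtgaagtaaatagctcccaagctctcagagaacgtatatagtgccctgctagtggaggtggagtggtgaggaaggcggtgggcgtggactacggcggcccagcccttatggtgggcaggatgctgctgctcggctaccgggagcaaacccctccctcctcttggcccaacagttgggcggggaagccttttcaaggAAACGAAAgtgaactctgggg
Ifnar2: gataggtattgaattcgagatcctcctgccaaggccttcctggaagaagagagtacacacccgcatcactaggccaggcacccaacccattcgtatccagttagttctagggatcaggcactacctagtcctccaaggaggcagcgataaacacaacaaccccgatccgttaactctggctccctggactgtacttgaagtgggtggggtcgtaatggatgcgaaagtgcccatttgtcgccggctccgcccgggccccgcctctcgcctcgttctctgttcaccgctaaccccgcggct
Ifit3: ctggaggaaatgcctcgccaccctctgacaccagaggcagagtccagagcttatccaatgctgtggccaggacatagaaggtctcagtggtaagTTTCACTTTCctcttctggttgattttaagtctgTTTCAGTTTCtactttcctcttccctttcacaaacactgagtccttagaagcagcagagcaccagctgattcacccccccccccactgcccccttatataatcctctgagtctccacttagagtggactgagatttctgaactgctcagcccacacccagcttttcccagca
Isg15: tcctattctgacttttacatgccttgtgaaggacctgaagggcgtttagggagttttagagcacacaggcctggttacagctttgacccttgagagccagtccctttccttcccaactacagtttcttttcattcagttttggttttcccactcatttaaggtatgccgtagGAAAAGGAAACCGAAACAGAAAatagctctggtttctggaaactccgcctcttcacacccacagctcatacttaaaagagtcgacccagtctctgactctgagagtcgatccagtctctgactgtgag

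Cgas (ENSMUSG00000032344, minus strand of chromosome 9, 78430526 to 78443237 in GRCm38), the cytosolic DNA sensor, had 0, 9 and 1 counts in shIGF2BP1 and 0, 0 and 1 in shNT. 9 of its 11 counts stood in shIGF2BP1 replicate 2. The pooled normalised ratio of 10.9 had a 95% counting interval from 1.55 to 473, and without that library the ratio was 1.80 (0.0230 to 142), so no difference is supported beyond that library. A library with 0 counts allows up to 3 counts, which is 0.0850 to 0.114 CPM. The antisense gene Gm8093, which overlaps 201 of its exonic bases, had 0 counts in every library.

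Tmem173 (ENSMUSG00000024349, minus strand of chromosome 18, 35733679 to 35740554), the STING adaptor of the endoplasmic reticulum, had 92.7, 108 and 92.7 CPM in shIGF2BP1 and 79.2, 57.3 and 109 CPM in shNT. The groups overlapped, since shNT replicate 3 was the highest of the 6 libraries and shNT replicate 2 the lowest. On the log2 scale the difference came to 0.26 ± 0.24 (SE; 95% interval -0.27 to 0.79; edgeR adjusted p = 0.881). Without shNT replicate 3 it was 0.52, and without shNT replicate 2 it was 0.06.

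Trex1 (ENSMUSG00000049734, minus strand of chromosome 9, 109057933 to 109059734), the DNA exonuclease, had 0 counts in all 6 libraries, but that 0 cannot be read as absence of its RNA. All 1147 of its exonic bases also belong to exons of Atrip on the same strand, and a counter that drops reads shared by genes leaves such a gene empty. Of 12 protein-coding genes in the table that lie wholly inside the exons of another gene on the same strand, 11 had 0 counts in all libraries (91.7%), against 6396 of 19978 (32%) without any such overlap. Atrip, a partner of the checkpoint kinase ATR, had 496, 575 and 456 counts in shIGF2BP1 and 533, 649 and 635 in shNT. Which of these reads came from Trex1 cannot be told.

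Most other DNA sensors were present. Of 12 genes listed as DNA sensors or STING partners, 11 were tested, 0 were called by edgeR, DESeq2 or limma-voom at an adjusted p under 0.05, and 1 had an unadjusted p under 0.05 in each of the 3 tools, beside 7.16% of all genes tested with edgeR. Their median log2 fold change was -0.14, with 5 positive and 6 negative, beside -0.01 over all genes tested, and the median reached -0.01 when shNT replicate 3 was left out. Aim2, the inflammasome sensor of cytosolic DNA, averaged 60.4 TPM and had 78.8 ± 36.1 CPM in shIGF2BP1 and 52.4 ± 16.5 CPM in shNT (SD, n = 3 each; edgeR adjusted p = 0.772). Trim56, a ubiquitin ligase reported to act on STING and cGAS, was the gene under an unadjusted p of 0.05. It had 81.6, 84.1 and 58.7 CPM in shIGF2BP1 and 89.9, 108 and 130 CPM in shNT, so every knockdown-labelled library lay below every control library (log2 fold change -0.55 ± 0.22 SE, edgeR adjusted p = 0.684). Ddx41, a helicase also described as a DNA sensor, showed no overlap the other way, with 79.8 ± 9.10 CPM in shIGF2BP1 and 60.1 ± 8.0 CPM in shNT (edgeR adjusted p = 0.723). Xrcc6 and Xrcc5, the Ku subunits that bind DNA ends, were the most abundant at 115 and 95.6 TPM, and Ifi202b had 0 counts. Ifi203, Ifi204 and Ifi202b belong to a family of related genes, and how far reads are shared within it was not tested, so their counts may be uncertain. Exons of Ddx41 and Xrcc6 overlap a gene on the opposite strand. So do exons of Irf3, Dhx58, Eif2ak2, Irak4, Myd88, Ikbke, Irf1, Irf5, Rnaseh2a, Rnaseh2b, Rnaseh2c, Jak1, Tyk2, Usp18 and Cxcl10, among others. Without the strand setting the reads of such pairs cannot be told apart.

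On the RNA side, Tlr3 (ENSMUSG00000031639, minus strand of chromosome 8, 45395665 to 45411080), the endosomal receptor for RNA duplexes, had 10.4, 6.58 and 6.05 CPM in shIGF2BP1 and 5.69, 6.46 and 7.8 CPM in shNT. Its highest library was shIGF2BP1 replicate 1 and the other 5 libraries overlapped. The log2 fold change of 0.21 ± 0.33 (SE; 95% interval -0.52 to 0.94, edgeR adjusted p = 0.935) turned to -0.07 without that library. Its promoter window is one of the pair with the shorter IRF element. An antisense gene overlaps 381 of its 5207 exonic bases, and the strand setting of the counting is not given.

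Of the 4 endosomal Toll-like receptors looked up, Tlr3 alone had more than a trace. Tlr7 and Tlr8, which read RNA strands, and Tlr9, which reads DNA, had 2, 1 and 1 counts summed over the 6 libraries. Parts that serve Toll-like receptors were abundant. Cnpy3, a chaperone for some but not all of them, averaged 127 TPM. Unc93b1, which carries the endosomal ones to endosomes, averaged 86.2 TPM, and Ticam1, the TRIF adaptor of TLR3, 35.1 TPM. Of 10 genes of the endosomal arm, 7 were tested, with 4 positive and 3 negative log2 fold changes and a median of 0.06 (-0.09 without shIGF2BP1 replicate 2); 0 were called by edgeR, DESeq2 or limma-voom, and 1 had an unadjusted p under 0.05 in each, beside 7.16% of all genes tested with edgeR. That gene was Irak1, a kinase downstream of MyD88, with 81.9, 91.3 and 70.6 CPM in shIGF2BP1 and 115, 115 and 114 CPM in shNT. Its groups did not overlap (log2 fold change -0.50 ± 0.18 SE, edgeR adjusted p = 0.641). Myd88 itself averaged 28.9 TPM, and Irak4, the kinase upstream of Irak1, had 16.7 ± 2.96 CPM in shIGF2BP1 and 12.1 ± 3.02 CPM in shNT (edgeR adjusted p = 0.786).

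Mavs (ENSMUSG00000037523, plus strand of chromosome 2, 131234063 to 131248025), the adaptor of RIG-I and MDA5, had 111, 111 and 119 CPM in shIGF2BP1 and 103, 124 and 107 CPM in shNT. The 3 shIGF2BP1 values lay inside the shNT range. The difference was 0.03 ± 0.18 on the log2 scale (SE; edgeR adjusted p = 0.983), and its 95% interval reached from -0.37 to 0.43.

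Both helicases upstream of Mavs were expressed. Ifih1 (MDA5) averaged 10.9 TPM and Ddx58 (RIG-I) 22.3 TPM, and Dhx58 (LGP2), their regulator, 4.66 TPM. Trim25, a ubiquitin ligase of the RIG-I pathway, was the most abundant at 56.6 TPM, while Rnf135, another ligase reported to act on RIG-I, had 0 counts in all 6 libraries. Of these 5 genes 4 were tested, 2 positive and 2 negative with a median log2 fold change of -0.10 (-0.01 without shNT replicate 3), and 0 were called by edgeR, DESeq2 or limma-voom, also at an unadjusted p under 0.05. Ifih1 had 656, 812 and 729 counts in shIGF2BP1 and 815, 1046 and 1088 in shNT. In CPM its groups did not overlap, at 24.9 ± 1.78 in shIGF2BP1 and 30.3 ± 2.73 in shNT (SD over 3 libraries; edgeR log2 fold change -0.29 ± 0.21 SE, adjusted p = 0.832). Ddx58 had 42.7 ± 4.91 and 54.6 ± 21.7 CPM in shIGF2BP1 and shNT, and the groups overlapped.

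The RNA-binding effectors that act beside MAVS were mostly low. Eif2ak2 (PKR), the kinase that halts translation on binding RNA duplexes, stood out at 32.3 TPM, with 54.2 ± 8.17 CPM in shIGF2BP1 and 47.5 ± 13.7 CPM in shNT (edgeR adjusted p = 0.918). The oligoadenylate synthetases averaged at most 4.01 TPM (Oas1b). Of 11 genes 10 were tested, of which 9 had a positive log2 fold change beside 48.5% of all genes tested, with a median of 0.32; 0 were called by edgeR, DESeq2 or limma-voom, also at an unadjusted p under 0.05. That median was 0.17 without shIGF2BP1 replicate 1, 0.59 without shNT replicate 1 and 0.55 without shIGF2BP1 replicate 3. Oas1a had 43, 40 and 46 counts in shIGF2BP1 and 30, 34 and 31 in shNT, without overlap between the groups (edgeR adjusted p = 0.849). The Oas1 genes are near-identical copies, so their counts are uncertain.

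Tbk1 and Irf3 stand where the arms converge, and neither passed the test. Tbk1 (ENSMUSG00000020115, minus strand of chromosome 10, 121546455 to 121586787), the kinase, had 58.6, 55.2 and 52.7 CPM in shIGF2BP1 and 51.1, 65.2 and 51.6 CPM in shNT. Irf3 (ENSMUSG00000003184, plus strand of chromosome 7, 44997648 to 45002848), the transcription factor it phosphorylates, had 43.4, 53.6 and 36.6 CPM in shIGF2BP1 and 51.6, 44.4 and 39.3 CPM in shNT. Both genes overlapped between the groups. The log2 fold change was -0.01 ± 0.20 for Tbk1 (SE; 95% interval -0.44 to 0.42, edgeR adjusted p = 0.993) and -0.02 ± 0.22 for Irf3 (-0.50 to 0.47, edgeR adjusted p = 0.991). With normalisation to library size only, both signs turned, to 0.07 and 0.06. Bcl2l12 overlaps 88 of the 3442 exonic bases of Irf3 on the opposite strand. Bcl2l12 had 641 to 910 counts against 1004 to 1890 for Irf3.

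None of their partners passed the test. Of 8 relay genes 7 had a negative log2 fold change, with a median of -0.41 beside -0.01 for all genes tested, and 0 were called by edgeR, DESeq2 or limma-voom, also at an unadjusted p under 0.05. Without shNT replicate 3 the median was -0.17 and 6 were negative. Irf1, a related factor that is itself induced by interferon, had 1454, 2201 and 1608 counts in shIGF2BP1 and 1741, 2124 and 4469 in shNT, with the highest value in that library. Irf5 had 18.7 ± 1.19 CPM in shIGF2BP1 and 26.6 ± 5.88 CPM in shNT (SD, n = 3 each; edgeR adjusted p = 0.723), and Tank, a scaffold of TBK1, had 36.6 ± 3.26 and 52.4 ± 17 CPM in the same order (edgeR adjusted p = 0.726). Ikbke, the kinase most like TBK1, averaged 7.05 TPM against 45.8 TPM for Tbk1 and was the positive member, with 23.0 ± 10.8 CPM in shIGF2BP1 and 16.7 ± 4.70 CPM in shNT (edgeR adjusted p = 0.837). Azi2, another TBK1 adaptor, had 55.5 ± 1.38 and 61.2 ± 3.73 CPM in shIGF2BP1 and shNT.

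Adar (ENSMUSG00000027951, plus strand of chromosome 3, 89715022 to 89753446), which edits adenosine to inosine in RNA duplexes, had 88.5, 107 and 115 CPM in shIGF2BP1 and 102, 131 and 181 CPM in shNT. The groups overlapped at shNT replicate 1, and shNT replicate 3 was the highest. The difference on the log2 scale was -0.41 ± 0.24 (SE; 95% interval -0.94 to 0.11; edgeR adjusted p = 0.778). It was -0.17 without shNT replicate 3 and -0.59 without shNT replicate 1 (edgeR adjusted p = 0.309, the lowest of its alternatives, which ran up to 0.9998). Gene counts do not separate the constitutive short isoform from the interferon-induced long one. Chrnb2, which overlaps 1365 of its 8118 exonic bases on the opposite strand, had 14 to 83 counts against 2321 to 5987 for Adar.

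Among other enzymes of editing and clearance, 8 of 9 genes were tested, 6 positive and 2 negative with a median log2 fold change of 0.10. Leaving out each library in turn moved that median from -0.10, without shNT replicate 3, to 0.26, without shNT replicate 1. Adarb2, an ADAR paralog known as a brain protein without shown editing activity, had the smallest p, with 17, 17 and 13 counts in shIGF2BP1 and 44, 131 and 60 in shNT. Its groups did not overlap (log2 fold change -2.15 ± 0.54 SE), as for 11.6% of all genes tested, and it averaged 0.357 TPM. Neither edgeR nor limma-voom called it (adjusted p = 0.455 and 0.548). DESeq2 did (adjusted p = 0.0352), beside 82 of 13445 genes, and over all alternatives the adjusted p ran up to 0.9998. It was the 1 gene of this list with an unadjusted edgeR p under 0.05, beside 7.16% of all genes tested. Adarb1, the editing paralog, had 1064, 1770 and 1085 counts in shIGF2BP1 and 1339, 1526 and 982 in shNT. Samhd1, a dNTP hydrolase, had 135 ± 20.7 CPM in shIGF2BP1 and 158 ± 28.1 CPM in shNT. The RNase H2 subunits Rnaseh2c and Rnaseh2a averaged 79.9 and 66.8 TPM, and Rnaseh2b had 18.2 ± 2.59 CPM in shIGF2BP1 and 14.8 ± 0.641 CPM in shNT (edgeR adjusted p = 0.856). Enpp1, which degrades the cGAS product, had 3 counts summed over the 6 libraries.

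Ifnar2 (ENSMUSG00000022971, plus strand of chromosome 16, 91372783 to 91405589), the high-affinity chain of the type I interferon receptor, did not pass the test, and was the one tested gene of the 10 whose groups did not overlap. It had 27.8, 33.6 and 28.8 CPM in shIGF2BP1 and 45.3, 37.6 and 42.6 CPM in shNT. All 3 knockdown-labelled libraries lay below all 3 controls, by a log2 fold change of -0.48 ± 0.20 (SE; 95% interval -0.92 to -0.03), a ratio of 0.719. The unadjusted edgeR p was 0.0390 and the adjusted p 0.686, and permuting the libraries' labels over all 20 regroupings (exact, two-sided, on log2(CPM + 1)) gave p = 0.1, the smallest that 3 against 3 libraries allow. In bulk RNA, fewer cells that express a gene and less RNA per cell cannot be told apart. The log2 fold change ran from -0.56 to -0.42 when each library was left out in turn. The readthrough gene Gm21970, which shares 315 exonic bases with Ifnar2, had 0 counts. Its promoter window holds neither element.

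Ifnar1 (ENSMUSG00000022967, plus strand of chromosome 16, 91485238 to 91507441), the partner chain, had 67.8, 73.1 and 65.2 CPM in shIGF2BP1 and 69.1, 82.8 and 75.3 CPM in shNT. The groups overlapped in a narrow band, with a log2 fold change of -0.14 ± 0.18 (SE; 95% interval -0.54 to 0.26, edgeR adjusted p = 0.918). Whether the difference was larger for Ifnar2 than for Ifnar1 was not tested.

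**Figure D2:**
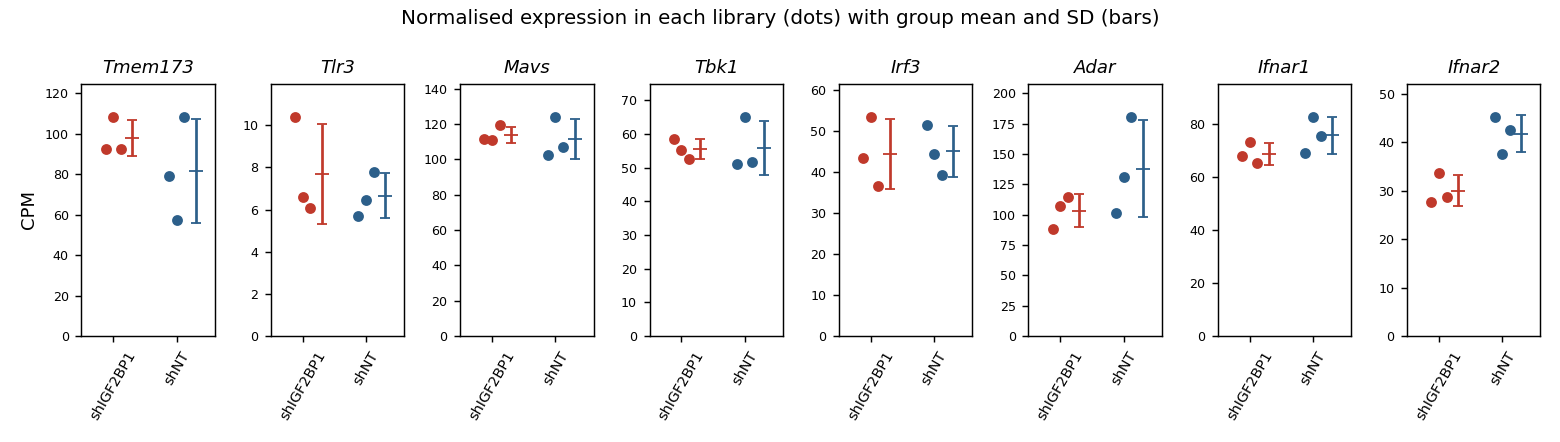
Normalised expression in CPM of the 8 tested genes, each on its own axis from 0, with 1 dot per library and the group mean with SD beside it (shIGF2BP1 red, shNT blue, n = 3 each). In the Ifnar2 panel the 3 shIGF2BP1 dots, 27.8 to 33.6 CPM, all lie below the shNT dots, 37.6 to 45.3 CPM; in the other panels the groups overlap.

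Downstream of the receptor, kinases and transcription factors of the signalling chain were expressed. Jak1 was the most abundant at 86.5 TPM, and Tyk2, the other receptor kinase, averaged 22.8 TPM. Stat2 and Irf9, which belong to the interferon-activated transcription complex, averaged 13.1 and 12.4 TPM. The interferon gamma receptor subunits Ifngr1 and Ifngr2 averaged 51.3 and 45.9 TPM, and Ifnlr1, the chain specific to interferon lambda, had 0 counts in all 6 libraries. Il10rb, its partner, had 11.2 ± 1.55 CPM in shIGF2BP1 and 14.8 ± 3.68 CPM in shNT (edgeR adjusted p = 0.816).

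Of 12 receptor and JAK-STAT genes 11 were tested, 6 positive and 5 negative with a median log2 fold change of 0.04 (from -0.01 to 0.24 with libraries left out). None passed the edgeR or limma-voom threshold, 2 had an unadjusted p under 0.05 in each of the 3 tools (beside 7.16% of all genes tested with edgeR), and DESeq2 called 1, beside 82 of 13445 genes. That was Usp18, a protein that binds IFNAR2 and damps signalling there, with 85, 65 and 52 counts in shIGF2BP1 and 15, 4 and 7 in shNT (edgeR adjusted p = 0.284, DESeq2 adjusted p = 0.000946). Without a filter on low counts edgeR called it as well (adjusted p = 0.00245), and over all alternatives the adjusted p ran up to 0.9998. In CPM it stood at 3.24, 1.84 and 1.90 in shIGF2BP1 and 0.505, 0.117 and 0.212 in shNT. Ifnar2 and Usp18 lay on opposite sides, each without overlap between the groups. Such a lack of overlap, in either direction, was seen in 11.6% of all genes tested. A link between the 2 genes was not tested.

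Over the 8 tested genes of the 10, edgeR called 0 at an adjusted p under 0.05, as did DESeq2 and limma-voom, where edgeR called 0.0223% of all genes tested. One gene, Ifnar2, had an unadjusted p under 0.05 with each of the 3 tools, beside 7.16% of all genes tested with edgeR (3.99% lower and 3.17% higher). Its unadjusted p was 0.0803 with library size only, 0.0658 with no filter on low counts, and from 0.0303 to 0.144 with single libraries left out, above 0.05 in 4 of those 6 fits. The same gene was the 1 of 8 whose groups did not overlap, beside 11.6% of all genes tested (5.59% lower and 6.06% higher), so neither count stands out from the background. 3 of 8 log2 fold changes were positive, beside 48.5% of all genes tested, and 5 of 8 when only library size was used. The median was -0.02 beside -0.01 for all genes tested, and the values ran from -0.48 to 0.26.

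**Figure D3:**
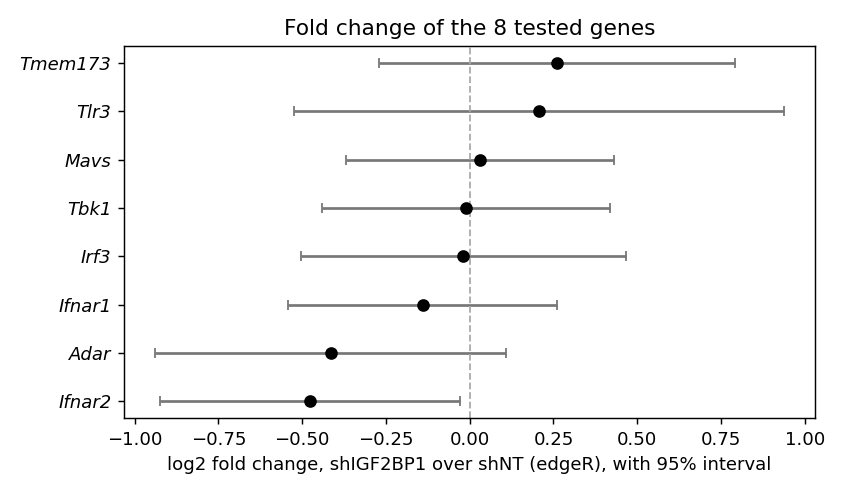
Log2 fold change of the 8 tested genes, shIGF2BP1 over shNT, from edgeR, with 95% intervals. The interval of Ifnar2 (-0.92 to -0.03) is the one that does not include 0 before adjustment, and Tbk1, Irf3 and Mavs lie at -0.01, -0.02 and 0.03.

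Interferon itself was close to undetected. Of 21 interferon genes 17 had 0 counts in all 6 libraries, among them every listed Ifna gene other than Ifna7, as well as Ifng, Ifnl2 and Ifnl3. Ifnb1, the gene that IRF3 switches on first, had 0 counts in each shIGF2BP1 library and 1, 0 and 3 in shNT. Ifna7 had 7 counts in shIGF2BP1 replicate 2 and 1 count in shNT replicate 3, and Ifne had 10 counts in shIGF2BP1 replicate 2, 1 in shNT replicate 1 and 1 in shNT replicate 3. The Ifna genes are near-identical copies, so a counter that drops reads with several matches can miss their RNA.

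Genes that interferon is known to induce were present at low to high levels. Bst2, a membrane protein that tethers virus particles, averaged 266 TPM, Ifi27 49.2 TPM and Ifit2 27.5 TPM, while Mx1, an antiviral GTPase, averaged 0.747 TPM. Of 15 output genes 14 were tested, and 12 had a positive log2 fold change beside 48.5% of all genes tested, with a median of 0.62. None was called by edgeR, DESeq2 or limma-voom; 2 had an unadjusted p under 0.05 with edgeR and limma-voom and 3 with DESeq2, beside 7.16% of all genes tested with edgeR. Of the 14, 3 lay higher in shIGF2BP1 without overlap between the groups, beside 6.06% of all genes tested. The median was 0.40 without shNT replicate 3 or shIGF2BP1 replicate 1, and 0.15 over the 4 genes with a mean CPM of 5 or more. Mx1 had 0.991, 1.76 and 1.17 CPM in shIGF2BP1 and 0.236, 0.352 and 0.695 CPM in shNT, and Ifit3, an RNA-binding antiviral protein, had 2.36, 1.47 and 1.71 CPM in shIGF2BP1 and 1.11, 0.499 and 0.907 CPM in shNT (edgeR adjusted p = 0.629 and 0.687). Neither gene overlapped between the groups, nor did Rsad2, the antiviral protein viperin, at 4.04 ± 0.57 CPM in shIGF2BP1 and 2.43 ± 0.572 CPM in shNT (edgeR adjusted p = 0.753). Cxcl10, a T cell attractant, went the other way at 0.513 ± 0.341 CPM in shIGF2BP1 and 1.10 ± 0.514 CPM in shNT (edgeR adjusted p = 0.779).

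**Figure D4:**
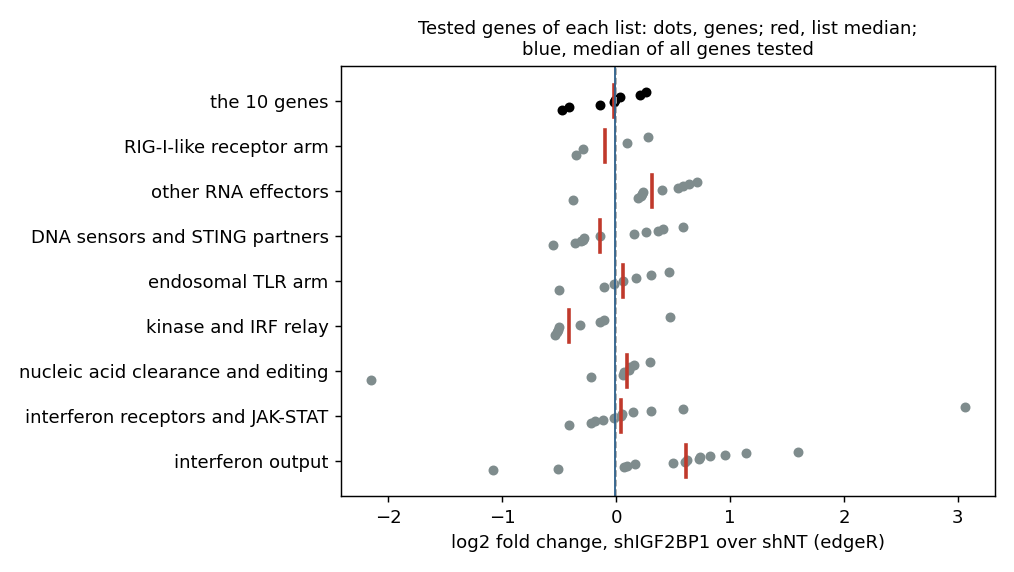
Log2 fold change, shIGF2BP1 over shNT, of every tested gene in each list, with the list median in red and the median of all genes tested (-0.01) in blue. The 8 tested genes of the 10 centre on -0.02, the relay genes on -0.41 and the interferon output genes on 0.62; none passed an edgeR adjusted p of 0.05.

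Of 10478 genes with a mean CPM of 5 or more, those whose log2(CPM + 1) followed Ifnar2 closely over the 6 libraries included Zfas1 (Pearson r = 0.979), a noncoding RNA that hosts small nucleolar RNAs, and St6gal1 (r = 0.978), a sialyltransferase. St6gal1 had 31.6, 38.5 and 36.3 CPM in shIGF2BP1 and 52.8, 43.6 and 52.4 CPM in shNT, without overlap between the groups. In all, 132 genes had an r above 0.9, and the 6 points share the difference between the groups, so these values describe likeness only.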

How the data were processed

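Per the submitters' processing notes, reads were handled with bcl2fastq, HISAT2 2.1.0 and HTSeq on GRCm38; per the labels' protocols, the library kit was stranded. The deposited table holds raw counts per gene for each library; its annotation release, strand setting and overlap mode were not given in the sources. The 92 spike-in rows had 0 counts. Symbols, coordinates and exon lengths came from GENCODE M21, which matched 42548 IDs (the 1081 others held 0.111% of counts).

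TMM-normalised counts went into edgeR 4.0.16 (R 4.3.3; quasi-likelihood test, robust, two-sided) over the 13445 genes passing filterByExpr (minimum count 10, minimum total 15), with Benjamini-Hochberg adjustment over all of them and a threshold of 0.05. TPM used the union of exons. Counting intervals are exact 95% binomial intervals and cover counting error only. Alternatives included DESeq2 1.42.0 and limma-voom (limma 3.58.1). Totals give 3 counts a value of 0.0850 to 0.114 CPM. The 10 genes and all lists were chosen with earlier results of these data known. Text names the 10 genes, Igf2bp1, and from each list up to 4 genes with the smallest p, the 3 highest in TPM and those at 0; Ticam1, Myd88, Tlr7, Tlr8, Tlr9, Adarb1, Enpp1, Tyk2, Stat2, Ifngr2, Isg15, Ifi203, Ifi204, marker genes, Atrip, Ifnb1, Ifna7, Ifne and overlapping genes were named after their values were seen. Some genes that the rule or lists include are not reported here.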

Additional observations from a re-analysis of the deposited data

How the results depend on the processing

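None of the 8 tested members was called under any of the 14 alternatives run. Cgas enters the fit with no filter on low counts, but its result there was not looked up. The count of all genes called, 3, was 138 with no filter on low counts, 82 with DESeq2, 18 once a replicate block entered the fit, and 1 at mean CPM 5, at a threshold of 0.01 or by limma-voom. It ranged from 1 to 5 with single libraries left out. Positive members numbered 3, against 5 with library size only or at mean CPM 5. Log2 fold changes near 0 turned sign: Tbk1 to 0.0692 and Irf3 to 0.0646 with library size only, and to 0.00881 and 0.00237 at mean CPM 5. When libraries were left out, Tbk1 ran from -0.0715 to 0.111, Irf3 from -0.164 to 0.101, Mavs from -0.0220 to 0.116 and Tlr3 from -0.0740 to 0.348. Igf2bp1 came to -0.239 in limma-voom, to -0.0466 under the replicate block and to between -1.24 and 0.763 with libraries left out. Tmem173 stayed positive and Adar, Ifnar1 and Ifnar2 negative in all 13 alternatives with a fit, with adjusted p values of at least 0.309. The cause of these shifts was not tested. With the longest transcript as length, mean TPM was 90.15 for Mavs, 53.74 for Irf3 and 45.23 for Ifnar1. Deviations from the group means correlated at 0.223, -0.0988 and 0.311 between libraries of like number, and not all libraries correlated best with their own number, so the replicate block rests on numbers alone; with it Ifnar2 had an unadjusted p of 0.0535 and 0 members were called. Depth limits Cgas, the Tlr genes other than Tlr3 and the interferon genes.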

Other observations

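Most of the few counts of Cgas, Ifna7 and Ifne stood in shIGF2BP1 replicate 2, which held 9 of 11, 7 of 8 and 10 of 12 of them. Other genes near 0 did not follow: that library held 0 of 4 Ifnb1 counts, 0 of 3 Enpp1 counts and 2 of 31 Csf1r counts. That library also had the highest CPM of Aim2, at 119 against 42.3 to 71.4 in the other 5 libraries. This was noticed after the values were seen, and no test was made of it.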
